A study of Mus musculus with 24 samples.

Results

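Genes that set vascular tone were followed across 24 RNA libraries of mouse amniotic cells, amniotic cells converted towards endothelium, and endothelial cells (ECs). The members, given as a list, were Nos3, Edn1, Ednra, Ednrb, Ece1, Ace, Ptgs1, Ptgs2 and Ptgis, 9 of the 22282 genes in the files. All 9 averaged 1 FPKM or more, as did 14964 genes in all. FPKM is the number of sequenced fragments per kilobase of transcript, scaled between libraries, here by upper-quartile normalization. Levels of different genes can thus be set side by side on it.

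Mouse amniotic cells (MACs) were cultured from C57BL/6J E11.5-E13.5 embryos of mixed sex. The mothers, on a C57BL/6 background, were wild type or carried a tdTomato reporter, and which applied to a library is not stated. RACVECs were MACs transduced with lentiviruses for the Ets transcription factors Etv2, Erg and Fli1 under a PGK promoter and kept in EC medium with an inhibitor of TGFβ signalling. Akt-MACs and Akt-RACVECs also carried a lentivirus for myristoylated Akt, a constitutively active form of the kinase, and Sox17-RACVECs carried a Sox17 lentivirus with puromycin selection instead. Akt-LECs and Akt-liver ECs were adult lung and liver ECs bound by CD31 beads, cultured with myristoylated Akt and sorted again on VE-cadherin and CD31. LSECs were liver ECs, called adult by the study, sorted without culture after VE-cadherin antibody and isolectin had been given in vivo. Each of the 8 groups had 3 libraries. The study calls the samples individual isolates, and p-values measure the spread between the libraries of a group.

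ECs control the calibre of vessels through a balance of signals. Nitric oxide, made by endothelial nitric oxide synthase (Nos3), and prostacyclin, made from arachidonic acid by the cyclooxygenases Ptgs1 and Ptgs2 and then by prostacyclin synthase (Ptgis), relax the surrounding smooth muscle. Endothelin-1 (Edn1), which is released from its precursor by endothelin-converting enzyme (Ece1), constricts vessels through the receptor Ednra on smooth muscle and signals on ECs through Ednrb. Angiotensin-converting enzyme (Ace), abundant on lung endothelium, makes the constrictor angiotensin II and degrades bradykinin.

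The genes lie apart in the mouse genome. On NCBIM37 (mm9), with the gene bounds of GENCODE M1, Nos3 lies at chr5:23870628-23890292, Edn1 at chr13:42396639-42403358 and Ece1 at chr4:137418152-137521144, all on the plus strand. Ednra lies at chr8:80186930-80248363 and Ednrb at chr14:104213842-104243390, both on the minus strand. Ace lies at chr11:105829259-105851278, Ptgs1 at chr2:36085946-36107792 and Ptgs2 at chr1:151947254-151955140 on the plus strand, and Ptgis at chr2:167017305-167066104 on the minus strand. Ednrb and Ace had 2 transcript rows each, which were summed, and the other members had 1.

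The windows of 250 bases before the RefSeq start of Ednrb and Ptgs1 are shown because these genes and Nos3 were lower in a pair of Sox17-RACVEC libraries than in Akt-RACVECs, as given below. They are read 5′ to 3′ in the sense of the gene, with the letters GGAA or TTCC (the core bound by Ets factors, on either strand) and ACAAT or ATTGT (a core bound by Sox factors, on either strand) in capitals.
Ednrb, GRCm38.p6 chr14:103843702-103843951, minus strand: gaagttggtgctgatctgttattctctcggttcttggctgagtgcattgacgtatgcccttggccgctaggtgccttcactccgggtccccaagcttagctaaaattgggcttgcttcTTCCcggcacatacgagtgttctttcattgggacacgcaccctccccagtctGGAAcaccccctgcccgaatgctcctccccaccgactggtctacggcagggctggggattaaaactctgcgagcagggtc
Ptgs1, GRCm38.p6 chr2:36230176-36230425, plus strand: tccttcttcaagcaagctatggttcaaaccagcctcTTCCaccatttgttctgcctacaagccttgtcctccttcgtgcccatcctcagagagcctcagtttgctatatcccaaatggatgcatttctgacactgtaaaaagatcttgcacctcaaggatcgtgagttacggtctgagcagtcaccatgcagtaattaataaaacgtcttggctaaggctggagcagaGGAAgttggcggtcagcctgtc
Both windows held 2 matches to the Ets core and 0 to the Sox core. Among all 32851 RefSeq windows of this length, 93.4% held the Ets core and 27.7% the Sox core. The same window of Edn1 (GRCm38.p6 chr13:42301226-42301475, plus strand) held 3 and 4 matches. Both cores can overlap by a letter and did not in these windows, a match is not a binding site, and no binding data were used. Windows were at hand for 7 of the 9 members, all but Nos3 and Ptgis. On mm9 the Ednrb window lies at chr14:104242919-104243168, within the GENCODE M1 bounds of the gene given above. That of Edn1, at chr13:42396595-42396844, runs past the GENCODE M1 start of its gene. The Ptgs1 window, at chr2:36085696-36085945, lies before the bounds of its gene.

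Before the members, the transduced genes were checked. Etv2 was at 127 to 860 FPKM in 8 of the 9 libraries of converted cells and was listed at 0 in the library labelled Sox17-RACVEC 2, as in all 15 libraries of other cells. Over the 14964 genes, the log2 values of that library had a Pearson correlation of 0.970 with Akt-RACVEC 3 and of 0.873 and 0.872 with the other Sox17-RACVEC libraries, which had 0.971 with each other. Comparisons whose calls changed without the library labelled Sox17-RACVEC 2 are therefore given with and without it, and where 3 Sox17-RACVEC values are listed it is the middle one. Sox17-RACVECs 1 and 3 also had correlations of 0.961 and 0.959 with RACVEC 2, which had 0.914 and 0.921 with RACVECs 1 and 3. Whether these libraries share an isolate is not stated. Sox17 itself was at 5.09, 40.1 and 200.1 FPKM in Sox17-RACVECs, at 0 in the RACVECs and at 12.0 to 83.5 in Akt-RACVECs. Erg was at 0.90 to 13.8 FPKM in RACVECs and at 395 to 1002 in Akt-RACVECs. The FPKM summed over 7 endothelial markers was 8.11 to 26.8 in MACs, 1266 to 2533 in RACVECs and 9752 to 14006 in Akt-RACVECs.

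**Figure D1:**
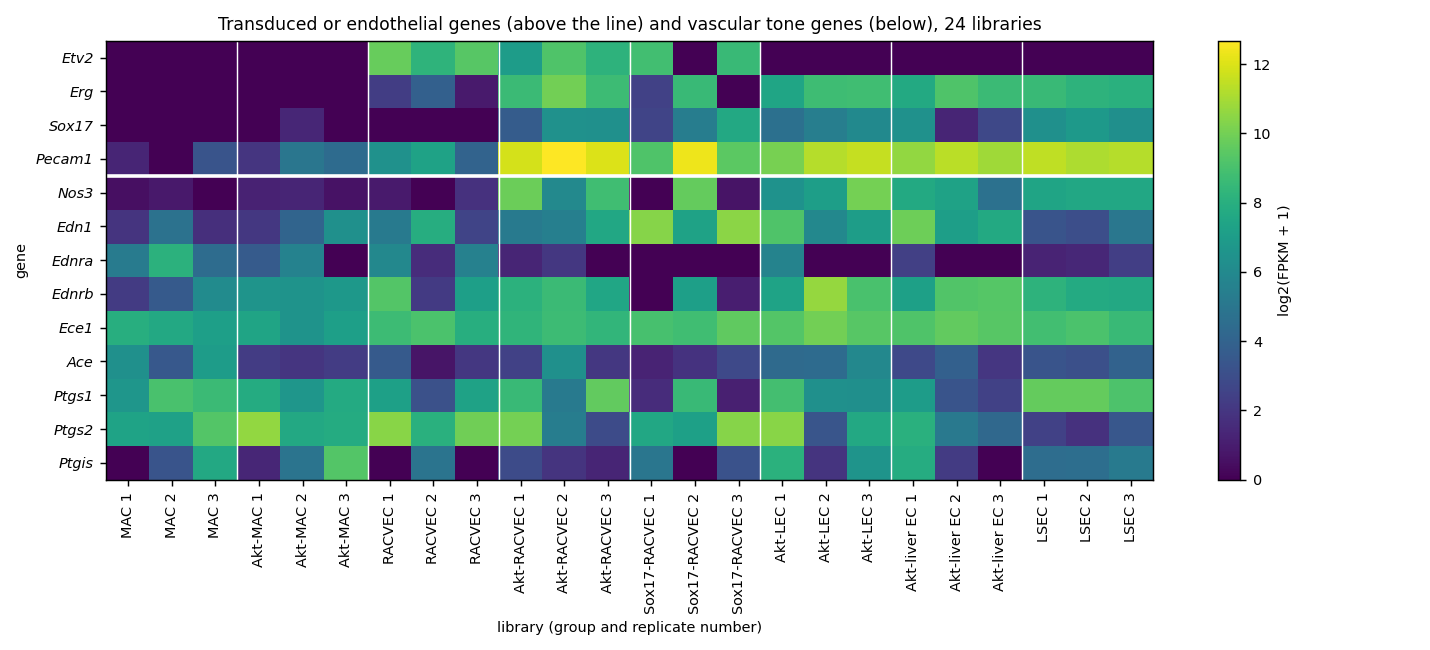
Heat map of log2(FPKM + 1) in the 24 libraries (columns, by group and replicate number) for Etv2, Erg, Sox17 and Pecam1 above the white line and the 9 vascular tone genes below it. The column of the library labelled Sox17-RACVEC 2 is dark for Etv2, listed at 0, and bright for Nos3 at 819 FPKM, unlike the columns on both sides of it.

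Endothelial nitric oxide synthase was near 0 in amniotic cells and RACVECs. Nos3 was at 0.44, 0.80 and 0 FPKM in MACs, at 1.32, 1.5 and 0.56 in Akt-MACs and at 0.87, 0 and 2.46 in RACVECs. Akt-RACVECs had 898, 62.3 and 444 FPKM. Neither Akt in MACs nor the Ets factors without Akt thus came with more than 2.46 FPKM, whereas every Akt-RACVEC library was above every RACVEC library. Akt-LECs had 87.1, 136 and 1053 FPKM, Akt-liver ECs 203, 159 and 25.6, and LSECs 166, 194 and 195. In Sox17-RACVECs, Nos3 was listed at 0 and at 0.58 FPKM in libraries 1 and 3 and was at 819 FPKM in the library labelled Sox17-RACVEC 2. The Ets factor Erg was at 0.90 to 13.8 FPKM in RACVECs and at 395 to 1002 in Akt-RACVECs. In Sox17-RACVECs, Erg was at 4.49, 387 and 0 FPKM. Akt and the Erg level cannot be told apart between RACVECs and Akt-RACVECs, and the part of Erg in the level of Nos3 was not tested.

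Ordered by mean, the groups with Nos3 ran from Akt-RACVECs over Akt-LECs, Sox17-RACVECs, LSECs and Akt-liver ECs to Akt-MACs, RACVECs and MACs. Neighbours in this order overlapped in 6 of 7 steps, and the gap lay between Akt-liver ECs and Akt-MACs. Without the library labelled Sox17-RACVEC 2, Sox17-RACVECs came last of the 8 groups, at a mean of 0.29 FPKM, and the gap was at the same place. The 3 genes whose log2 values over the 24 libraries were most like those of Nos3, out of 11699 genes whose FPKM averaged 10 or more, were Gimap9 (Pearson r = 0.94), Gimap1 (0.92) and Ccm2l (0.91). Libraries of a group share their cells and culture, and no test is attached to these values. Of the 27 genes named in this way for the 9 members, 18 remained among the nearest 3 without the library labelled Sox17-RACVEC 2, and no correlation moved by more than 0.0561.

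Akt-RACVECs were compared with RACVECs to ask what constitutive Akt adds in converted cells, where the Erg level also differed as given above. On the scale of log2(FPKM + 1), Nos3 was 7.30 higher in Akt-RACVECs than in RACVECs (SE 1.71, adjusted p = 0.0611 with limma over all genes), which missed the threshold of 0.05. Of all genes 0.261% were called in this comparison, that is, had an adjusted p below 0.05 and a log2 change past 1 or -1, and of the 9 members 0. At an unadjusted p below 0.05 and past 2-fold there were 2 members, Nos3 and Ednra, as were 10% of all genes, and by the criterion of the study's methods 0. The spread in the fit is shared by all groups. Without the library labelled Sox17-RACVEC 2 the same difference of 7.30 had an SE of 0.94 and an adjusted p of 0.000578 (limma) and was called, as were 2.45% of all genes. A fit of these groups alone, which holds neither that library nor the other 17 outside the comparison, did not call Nos3 (adjusted p = 0.135, limma, and 0.289 with a replicate block). The differences of the other members were 0.89 for Edn1, -3.25 for Ednra, 1.91 for Ednrb, -0.15 for Ece1, 1.51 for Ace, 1.90 for Ptgs1, -3.35 for Ptgs2 and 0.43 for Ptgis.

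Akt was also added to MACs without Ets factors. The Akt-MAC libraries held macrophage markers (5 genes) as well, summed to 809, 8402 and 27556 FPKM against 14.7 or less in MACs. Their part in the member levels of Akt-MACs was not tested. Of all genes 2.81% were called between Akt-MACs and MACs and of the members 0 with limma. At an unadjusted p below 0.05 and past 2-fold there was 1 member, Ace, beside 9.72% of all genes, and by the study's criterion 0. Nos3 differed there by 0.60 (SE 1.71, adjusted p = 0.966, limma). The difference between both Akt effects on Nos3 was 6.70 (SE 2.43, adjusted p = 0.259, limma). Without the library labelled Sox17-RACVEC 2 it was again 6.70 (SE 1.34, adjusted p = 0.0353, limma), and in a fit of these 4 groups alone the adjusted p was 0.0922 (0.180 with a replicate block) and Nos3 was not called. In that test of the difference 0.1% of all genes were called, 0.368% without the library, and of the members 0 and 1. The other member past 2-fold at an unadjusted p below 0.05, beside 10.1% of all genes, was Ace, with a difference of 4.96 (SE 1.43, adjusted p = 0.146, limma). The remaining differences of Akt-MACs from MACs were 1.40 for Edn1, -2.88 for Ednra, -0.56 for Ece1, -0.70 for Ptgs1, 0.73 for Ptgs2 and 1.53 for Ptgis. The Akt effects differed by -0.50 for Edn1, -0.36 for Ednra, -0.74 for Ednrb, 0.41 for Ece1, 2.60 for Ptgs1, -4.08 for Ptgs2 and -1.11 for Ptgis. The MAC libraries and the RACVEC libraries each serve in several of the comparisons here.

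**Figure D2:**
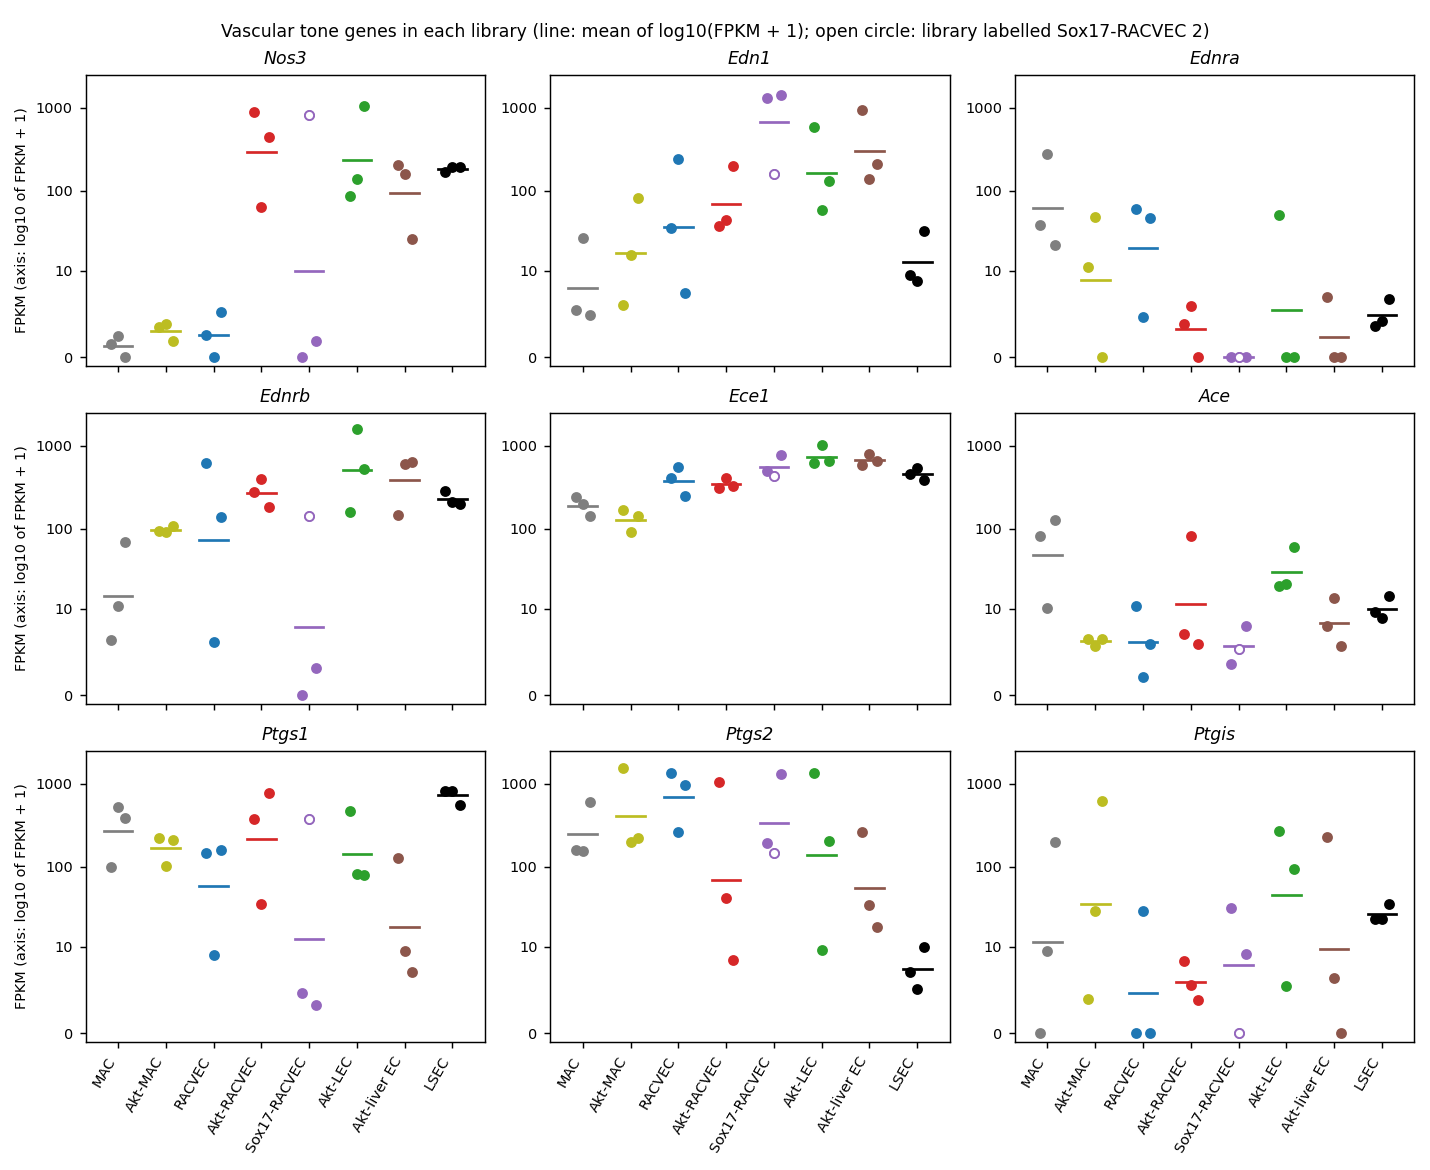
FPKM of the 9 vascular tone genes on a log10(FPKM + 1) axis, 1 point per library, with the mean of the log values as a line and the library labelled Sox17-RACVEC 2 as an open circle. Nos3 is at 2.46 FPKM or less in all MAC, Akt-MAC and RACVEC libraries, and Ptgs2 is at 9.83 or less in LSECs.

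The endothelin ligand was highest in Sox17-RACVECs. Edn1 was at 1329 and 1436 FPKM in libraries 1 and 3 of Sox17-RACVECs and at 158 in the library labelled Sox17-RACVEC 2. It was at 34.7, 241 and 5 FPKM in RACVECs and at 36.9, 43.2 and 196 in Akt-RACVECs. Libraries 1 and 3 lay above every other library. MACs had 2.71, 26.4 and 2.22 FPKM, Akt-MACs 3.21, 16.1 and 81.7, and LSECs 8.70, 7.34 and 31.7. Akt-LECs had 580, 58.6 and 131 FPKM and Akt-liver ECs 935, 139 and 207, so that library 1 was the highest in both. The genes most like Edn1 over the libraries were Fiz1 (Pearson r = 0.86), Smpdl3b (0.83) and Trmt1 (0.81).

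Sox17 in converted cells was the question of the next comparison. Edn1 was 4.17 higher on the log2 scale in Sox17-RACVECs than in RACVECs (SE 1.36, adjusted p = 0.510, limma), and 5.21 higher without the library labelled Sox17-RACVEC 2 (SE 1.46, adjusted p = 0.483), and was not called in either fit. Only 0.00668% of all genes were called, 1 gene, and 0.0601% without that library. Of the members 0 were called with limma and by the study's criterion, and 3 (Edn1, Ednra and Ednrb) were at an unadjusted p below 0.05 and past 2-fold, as were 4.7% of all genes. Nos3 differed by 2.55 with the library and by -0.57 without it, with adjusted p of 0.857 and 1 (limma), so that its direction rested on that library. With all libraries, Ednrb differed by -3.45, Ece1 by 0.52, Ace by -0.15, Ptgs1 by -2.11, Ptgs2 by -1.08 and Ptgis by 1.09, and Ednra was listed at 0 in Sox17-RACVECs.

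The endothelin receptors differed in the groups where they were highest. Ednra, the receptor of smooth muscle, was at 37.9, 280 and 21.2 FPKM in MACs and at 59.4, 2.06 and 46.6 in RACVECs, and was listed at 0 in all 3 Sox17-RACVEC libraries. Akt-MACs had 11.3, 48.2 and 0 FPKM, Akt-RACVECs 1.5, 3.12 and 0, and LSECs 1.40, 1.69 and 4.04. In Akt-LECs it was at 50.3 FPKM in library 1 and listed at 0 in the others, and in Akt-liver ECs at 4.31 in library 1 and listed at 0 in the others. Those first libraries were also high in smooth muscle and pericyte markers (7 genes), whose summed FPKM was 1920 against 15.6 and 92.8 in Akt-LECs and 1524 against 66.3 and 45.8 in Akt-liver ECs. In MACs this sum was 2232 to 3404, in RACVECs 227 to 1646, in Akt-RACVECs 5.81 to 356 and in LSECs 122 to 195. It was 2203, 1474 and 6581 in Akt-MACs and 940, 7.12 and 2057 in Sox17-RACVECs. The library with the highest sum, Akt-MAC 3, and all Sox17-RACVEC libraries thus had Ednra listed at 0. The part of the cells with these markers in the level of Ednra was not tested. In bulk RNA fewer cells of a type and less RNA per cell cannot be told apart. Most like Ednra over the libraries were Pamr1 (Pearson r = 0.90), S1pr3 (0.90) and Sfrp1 (0.89).

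Ednrb, the receptor of ECs, was at 161, 1614 and 522 FPKM in Akt-LECs, at 146, 599 and 639 in Akt-liver ECs and at 287, 212 and 198 in LSECs. MACs had 3.61, 11 and 68.6 FPKM and Akt-MACs 94.8, 90.5 and 106. All Akt-MAC libraries were above all MAC libraries, with a log2 difference of 2.64 (SE 1.63, adjusted p = 0.541, limma) that was not called. RACVECs had 629, 3.39 and 139 FPKM, a spread over more than 2 orders of magnitude within the group, and Akt-RACVECs 281, 398 and 181. Sox17-RACVECs were listed at 0 and had 1.11 FPKM in libraries 1 and 3, with 140 in the library labelled Sox17-RACVEC 2. Most like Ednrb were Gramd1b, Cd247 and Sema4c (Pearson r = 0.79, 0.79 and 0.78).

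The share of Ednrb in the summed FPKM of both receptors was 8.70%, 3.78% and 76.4% in MACs and 91.4%, 62.2% and 74.9% in RACVECs. It was 89.3%, 65.3% and 100% in Akt-MACs, between 99.2% and 100% in Akt-RACVECs and between 98.0% and 99.5% in LSECs. In Akt-LECs it was 76.2% in library 1 and 100% in the others. Sox17-RACVEC 1 gave no share because both receptors were listed at 0, and the share of Sox17-RACVEC 3 rests on 1.11 FPKM. MACs 1 and 2 thus had mainly Ednra among the receptor transcripts, and every other library with a share, Akt-MACs included, mainly Ednrb.

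**Figure D3:**
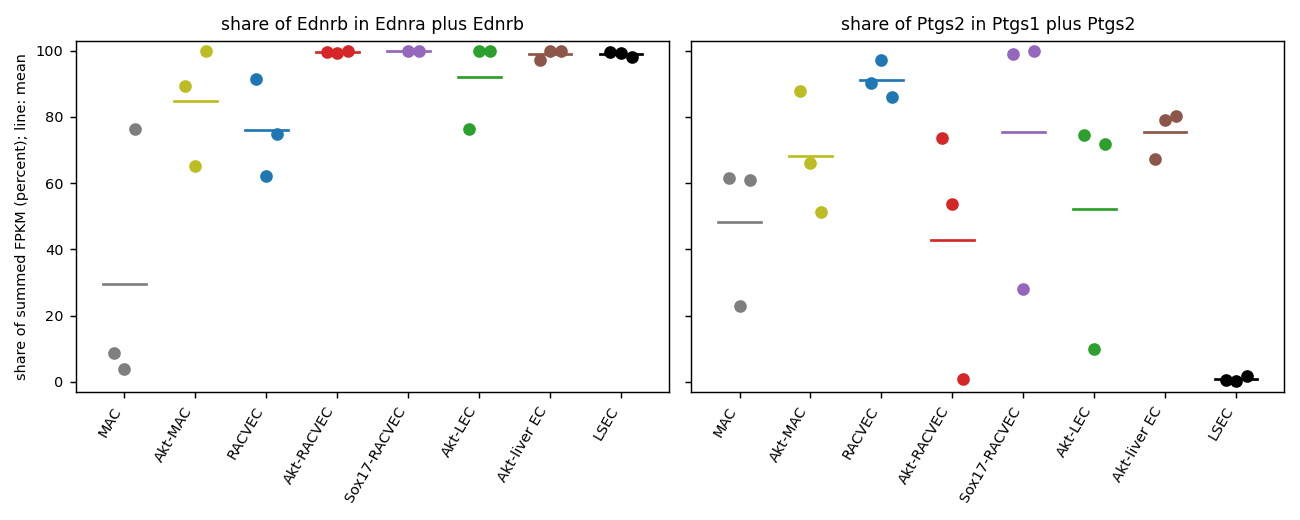
Share of Ednrb in the FPKM of both endothelin receptors (left) and of Ptgs2 in the FPKM of both cyclooxygenases (right), in percent, 1 point per library with the mean as a line. The middle point of Sox17-RACVECs is the library labelled Sox17-RACVEC 2. The Ptgs2 share is at 1.72% or less in the 3 LSEC libraries, and at 85.9% or more in RACVECs.

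Sox17-RACVECs were set against Akt-RACVECs to compare both additions to the Ets factors. With all libraries 0 of 9 members and 0% of all genes were called with limma. At an unadjusted p below 0.05 and past 2-fold there were 4 members, Edn1 higher and Ednrb, Nos3 and Ptgs1 lower, beside 4.02% of all genes. By the study's criterion there was 1 member, Ednrb, beside 0.431% of the 22282 genes. Without the library labelled Sox17-RACVEC 2, which leaves 2 libraries in that arm, 3 members and 2.27% of all genes were called. Nos3 stood then at -7.87 on the log2 scale (SE 1.06, adjusted p = 0.000881, limma), Ednrb at -7.56 (SE 1.46, adjusted p = 0.0126) and Ptgs1 at -6.41 (SE 1.42, adjusted p = 0.0245). With it the differences were -4.75, -5.36 and -4.01 with adjusted p of 0.539, 0.475 and 0.594 (limma). Edn1 was 4.32 higher without it (SE 1.46, adjusted p = 0.127) and was not called. With all libraries, Ece1 differed by 0.67, Ace by -1.67, Ptgs2 by 2.27 and Ptgis by 0.67. Ednra, listed at 0 in all Sox17-RACVECs, was at -1.12 without the library labelled Sox17-RACVEC 2. RACVEC 2, without a Sox17 virus, was at 0, 3.39 and 7.78 FPKM in Nos3, Ednrb and Ptgs1. RACVECs 1 and 3 were at 0.87 and 2.46 in Nos3, 629 and 139 in Ednrb, and 146 and 158 in Ptgs1. The part of the isolate in these differences was not tested.

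Ece1, which cleaves the endothelin precursor, was the steadiest member. Its mean FPKM was 194 ± 52.0 (SD, n = 3) in MACs, 132 ± 38.6 in Akt-MACs, 403 ± 152 in RACVECs, 348 ± 54.6 in Akt-RACVECs and 567 ± 180 in Sox17-RACVECs. It was 762 ± 223 in Akt-LECs, 683 ± 112 in Akt-liver ECs and 464 ± 80.1 in LSECs. The Sox17-RACVEC mean was 634 without the library labelled Sox17-RACVEC 2 and kept its rank. Every library of converted cells or ECs was above every MAC and Akt-MAC library, but RACVEC 3, at 245.3 FPKM, only just above MAC 1, at 244.8. In the order of the means, neighbours overlapped in 6 of 7 steps, all but that from Akt-RACVECs to MACs. Most like Ece1 were Spns2 (Pearson r = 0.88), Smtn (0.87) and Mmrn2 (0.86).

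What the Ets factors change in amniotic cells was asked with RACVECs against MACs, where 2.71% of all genes and 0 of 9 members were called with limma. At an unadjusted p below 0.05 and past 2-fold there were 2 members, Ece1 and Ace, beside 12.6% of all genes, and by the study's criterion 0. Ece1 was 1.01 higher on the log2 scale (SE 0.31, adjusted p = 0.0865), and 1.33 higher and called without RACVEC 3 (adjusted p = 0.0391, limma). Ace was at 80.8, 10.3 and 126 FPKM in MACs and at 10.8, 0.67 and 3.12 in RACVECs, a difference of -3.50 (SE 1.01, adjusted p = 0.0702, limma). It was called without MAC 2 (-4.55, adjusted p = 0.0138, limma) and without RACVEC 1 (-4.22, adjusted p = 0.0465). The other differences were 0.44 for Nos3, 2.43 for Edn1, -1.59 for Ednra, 2.22 for Ednrb, -2.22 for Ptgs1, 1.51 for Ptgs2 and -2.02 for Ptgis. The median log2 difference of the 9 members was 0.44 and that of all genes 0.

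Ace was also low in Akt-MACs, at 3.82, 2.93 and 3.77 FPKM, all below the MACs (-3.45, SE 1.01, adjusted p = 0.0777, limma, and -4.50 with adjusted p = 0.0409 without MAC 2). Akt-LECs had 19.7, 20.8 and 60.4 FPKM and Akt-liver ECs 5.87, 13.9 and 2.96, so that every lung library was above every liver library, by 2.03 on the log2 scale (SE 1.01, adjusted p = 1, limma). LSECs had 8.96, 7.42 and 14.8 FPKM, Sox17-RACVECs 1.40, 2.59 and 5.86, and Akt-RACVECs 4.45, 81.9 and 3.19, of which 1 library stood far above the others. Most of this level came from 1 of the 2 transcripts, and the other did not exceed 1.57 FPKM in any library. No gene was close to Ace in pattern, with Pcdhgb7 (Pearson r = 0.72), Atp8b1 (0.63) and Rps4l (0.59) the nearest.

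Between lung and liver, that is, Akt-LECs against Akt-liver ECs, 0.0134% of all genes (2 genes) and 0 of 9 members were called with limma. At an unadjusted p below 0.05 and past 2-fold there were 0 members and 2.79% of all genes, and by the study's criterion 0 members. Beside Ace, the differences were 1.29 for Nos3, -0.86 for Edn1, 1.09 for Ednra, 0.43 for Ednrb, 0.13 for Ece1, 2.92 for Ptgs1, 1.32 for Ptgs2 and 2.16 for Ptgis. Both first libraries, Akt-LEC 1 and Akt-liver EC 1, have a number alone as the header of their values and were higher than the other libraries of their group in Edn1, Ednra, Ptgs1, Ptgs2 and Ptgis. Without both, 0 members were called. Macrophage markers summed to 1404 FPKM in Akt-LEC 1 against 0.75 and 18.6, and to 956 in Akt-liver EC 1 against 2.19 and 0. Epithelial markers (4 genes) summed to 163 against 6.75 and 2.56, and to 1465 against 29.8 and 10.5. The part of these cells, and of the smooth muscle markers given above, in the levels of these members was not tested.

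RACVECs were compared with Akt-LECs to ask how far converted cells are from cultured lung ECs. Of all genes 0.261% and of the members 0 were called with limma. At an unadjusted p below 0.05 and past 2-fold there were 2 members, Nos3 and Ace, beside 7.79% of all genes, and by the study's criterion 0. Nos3 was at -6.97 in RACVECs relative to Akt-LECs on the log2 scale (SE 1.71, adjusted p = 0.110, limma). Without the library labelled Sox17-RACVEC 2 the adjusted p was 0.000931 and Nos3 was called, as were 0.668% of all genes, but in a fit of these groups alone it was 0.222 (0.446 with a replicate block) and Nos3 was not called. Ace was at -2.80 (SE 1.01, adjusted p = 0.273), with every RACVEC library below every Akt-LEC library. The other differences were -2.15 for Edn1, 2.47 for Ednra, -2.82 for Ednrb, -0.96 for Ece1, -1.30 for Ptgs1, 2.33 for Ptgs2 and -3.89 for Ptgis. The median difference of the 9 members was -2.15 and that of all genes 0.

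Cultured ECs, the average of both Akt-LEC and Akt-liver EC groups, were set against MACs to see which members mark endothelium in culture. Here 5 of 9 members were called with limma, where 14.8% of all genes were. Nos3 was 6.76 higher on the log2 scale (SE 1.49, adjusted p = 0.00452), Edn1 5.02 higher (SE 1.18, adjusted p = 0.00696), Ednrb 4.83 higher (SE 1.41, adjusted p = 0.0230) and Ece1 1.90 higher (SE 0.27, adjusted p = 0.000134). In these 4 genes all 6 EC libraries lay above all 3 MAC libraries, and the share of all genes separated in this way was not counted. Ednra fell by 4.61 (SE 1.32, adjusted p = 0.0205, limma), with Akt-LEC 1 within the range of the MACs. Ace, Ptgs1, Ptgs2 and Ptgis were not called (-1.71, -2.38, -1.48 and 0.78). The calls of Ednra and Ednrb rested on single MAC libraries, with adjusted p of 0.0512 and 0.125 without MAC 1 and of 0.109 and 0.0660 without MAC 2 (limma), where Ace was called instead (-2.77, adjusted p = 0.0448). The median difference of the members was 0.78 and that of all genes 0.03.

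**Figure D4:**
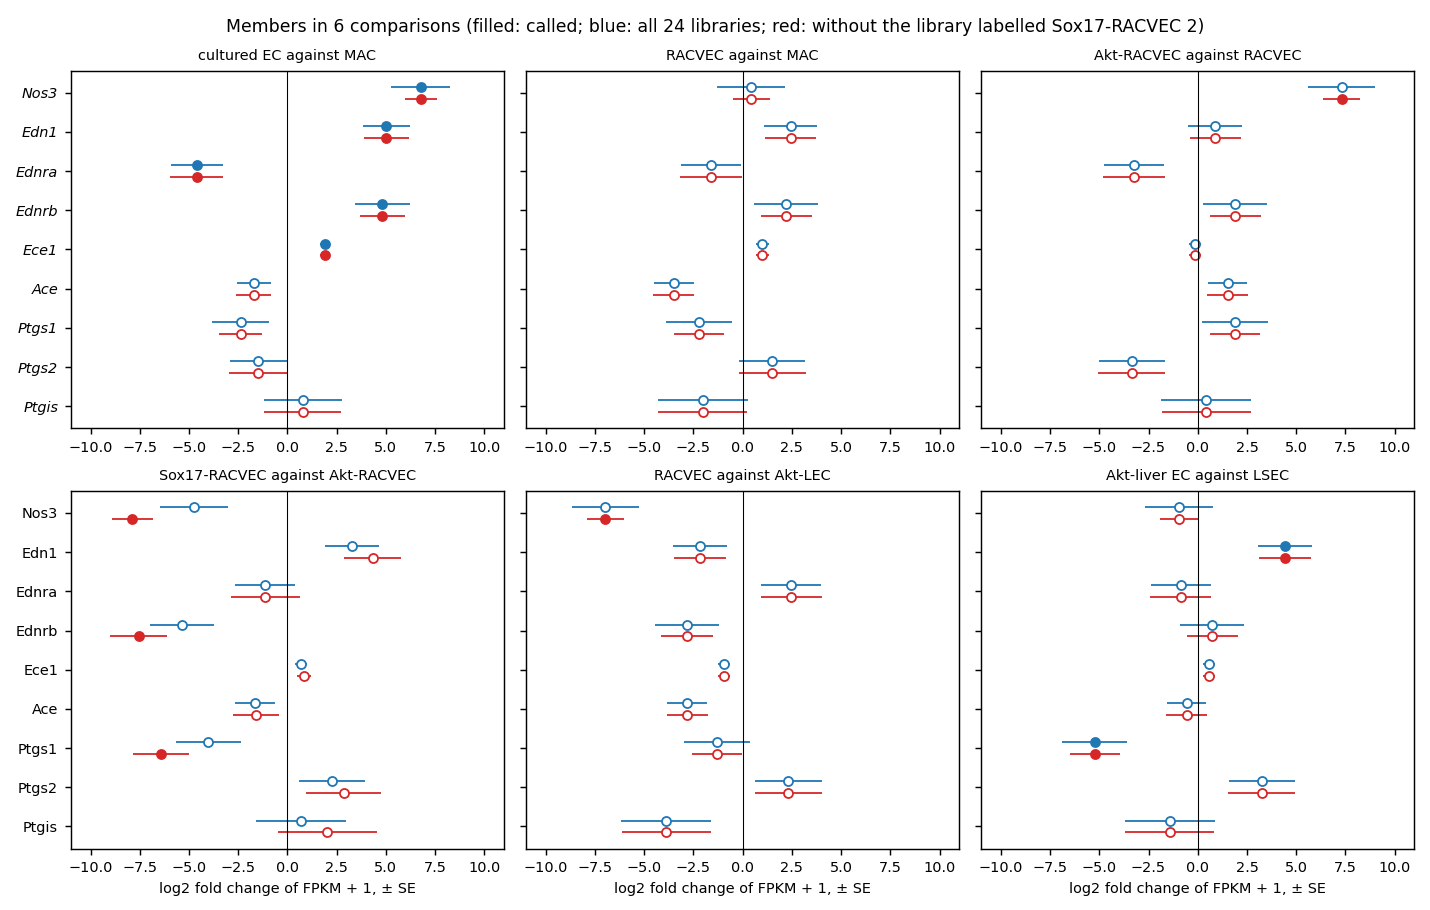
Difference in log2(FPKM + 1) with its standard error (x axis) for the 9 members (y axis) in 6 comparisons, with all 24 libraries in blue and without the library labelled Sox17-RACVEC 2 in red, filled where called. With all libraries the filled points are the 5 members called between cultured ECs and MACs and the 2 called between Akt-liver ECs and LSECs. Ednra in Sox17-RACVECs was listed at 0 in every library, and its points there depend on the pseudocount.

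Of the cyclooxygenases, Ptgs1 was high and Ptgs2 low in LSECs. Ptgs1, the constitutive form, was at 826, 818 and 563 FPKM in LSECs, above the other 7 group means, and Ptgs2, the inducible form, at 4.54, 2.46 and 9.83, below them. In Akt-liver ECs, Ptgs1 was at 129, 8.91 and 4.50 FPKM and Ptgs2 at 263, 33.9 and 18.2. The share of Ptgs2 in the summed FPKM of both was 0.30% to 1.72% in LSECs and 67.2% to 80.2% in Akt-liver ECs. In the order of Ptgs2 means, the 6 other steps held overlapping neighbours, and only LSECs lay below their neighbour, Akt-liver ECs, without overlap. Single libraries of other groups lay within the LSEC range of Ptgs2, Akt-RACVEC 3 at 6.53 FPKM and Akt-LEC 2 at 9. Akt-RACVEC 3 was also within the LSEC range of Ptgs1, at 782 FPKM. Outside the liver, the Ptgs2 share was 85.9% to 97.2% in RACVECs, 22.8% to 61.4% in MACs and 0.83% to 73.6% in Akt-RACVECs.

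Akt-liver ECs and LSECs differ in culture, Akt and purification, which cannot be told apart, and 27% of all genes were called between them. Of the 9 members 2 were called with limma. Ptgs1 was at -5.24 in Akt-liver ECs relative to LSECs on the log2 scale (SE 1.67, adjusted p = 0.0206), and Edn1 was 4.44 higher (SE 1.36, adjusted p = 0.0170). In both genes the groups did not overlap. Ptgs2 did not overlap either, at 3.24 higher (SE 1.68, adjusted p = 0.145), and Nos3 differed by -0.96 (SE 1.71, adjusted p = 0.711). How many of all genes were without overlap between these groups was not counted. The call of Edn1 was lost without Akt-liver EC 1 (adjusted p = 0.0776), LSEC 1 (0.0582) or LSEC 2 (0.0595), and that of Ptgs1 without Akt-liver EC 2 (adjusted p = 0.0677), Akt-liver EC 3 (0.0923), LSEC 1 (0.0577) or LSEC 2 (0.0536), all with limma. Ednra differed by -0.87, Ednrb by 0.74, Ece1 by 0.56, Ace by -0.57 and Ptgis by -1.42. The median difference was -0.57 for the members and 0.08 for all genes.

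The LSEC libraries also held RNA of other liver cells. The summed FPKM of 5 macrophage markers was 9009 to 14902 in LSECs and 956, 2.19 and 0 in Akt-liver ECs. The Kupffer cell marker Clec4f was at 2965 to 4942 FPKM in LSECs and at 4.75, 0 and 0 in Akt-liver ECs. The sum of 5 hepatocyte markers was 2241 to 13385 against 32.1 to 67.3, and that of 4 platelet and megakaryocyte markers 141 to 243 against 10.7 to 212. Their part in the Ptgs1 level of LSECs was not tested. Sinusoidal markers, 4 genes, summed to 35557 to 48063 FPKM in LSECs and 2322 to 7289 in Akt-liver ECs. Of these, Stab2, Clec4g and Fcgr2b were higher in every LSEC library than in every Akt-liver EC library. Lyve1 was not, at 2047, 1452 and 2164 FPKM in LSECs and 1725, 5333 and 7229 in Akt-liver ECs.

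In the other groups Ptgs1 varied widely. It was at 100, 522 and 392 FPKM in MACs, 221, 102 and 212 in Akt-MACs and 146, 7.78 and 158 in RACVECs. Akt-RACVECs had 378, 35.1 and 782 FPKM and Akt-LECs 467, 80.8 and 79.3. Sox17-RACVECs 1 and 3 were at 2.09 and 1.18 FPKM, the lowest of all libraries, and the library labelled Sox17-RACVEC 2 was at 380. Ptgs2 was at 160, 154 and 612 FPKM in MACs, 1574, 197 and 223 in Akt-MACs and 1357, 266 and 964 in RACVECs. It was at 1054, 40.9 and 6.53 in Akt-RACVECs, 191, 147 and 1314 in Sox17-RACVECs and 1355, 9 and 203 in Akt-LECs. The difference of Akt-RACVECs from RACVECs was -3.35 (SE 1.68, adjusted p = 0.340, limma), with overlapping libraries. Most like Ptgs1 were Ccdc80, Tiam1 and Lims2 (Pearson r = 0.82, 0.79 and 0.78), and most like Ptgs2 were Ereg, Cfl2 and Gfpt1 (0.89, 0.89 and 0.88).

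Prostacyclin synthase varied widely within groups. Ptgis was at 0, 8.74 and 201 FPKM in MACs, 1.61, 28.4 and 621 in Akt-MACs, 0, 28.4 and 0 in RACVECs and 6.47, 2.78 and 1.52 in Akt-RACVECs. Sox17-RACVECs had 30.8, 0 and 8.01 FPKM, Akt-LECs 269, 2.70 and 93.8, Akt-liver ECs 230, 3.63 and 0, and LSECs 22.5, 23.0 and 35.2. It was not called in any of the 10 comparisons, and its groups overlapped with each neighbour in the order of means. In Akt-MAC 3, its highest library, mesothelial markers (3 genes) summed to 2518 FPKM, against 98.2 or less in the other MAC and Akt-MAC libraries. In RACVEC 3, where Ptgis was listed at 0, they summed to 2026 FPKM, all of it from Msln. In Akt-LEC 1, where Ptgis was at 269 FPKM, they summed to 44.1. The part of mesothelial cells in the level of Ptgis was not tested. The genes nearest in pattern were Gltp, Lrrn4 and Myl6 (Pearson r = 0.73 each).

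Of 48 further genes of these pathways, 44 were tested. Between cultured ECs and MACs 2 were called higher, Slc7a1 and Nostrin, and 8 lower, together 22.7% of those tested against 14.8% of all genes. Agtr2, a receptor of angiotensin II, was at 537, 1363 and 26.3 FPKM in MACs and at 5.47 or less in cultured ECs (-7.15, adjusted p = 0.000872, limma). Nostrin, which binds Nos3, was listed at 0 in the MACs and was at 23.0 to 54.9 FPKM in Akt-LECs and at 46.3, 0 and 2.62 in Akt-liver ECs. The neprilysin gene Mme, whose product degrades peptides such as endothelin, was lower by the same test (-3.68, adjusted p = 0.0106), as was the angiotensin precursor Agt (-3.66, adjusted p = 0.0159). In RACVECs against MACs 0 rose and 3 fell, 6.82% of those tested against 2.71% of all genes, which were Agtr2 (-5.57, adjusted p = 0.0411), the cGMP-dependent kinase gene Prkg1 (-3.77, adjusted p = 0.0138) and the prostaglandin E receptor gene Ptger3 (-2.60, adjusted p = 0.0144).

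Akt-MACs against MACs gave 2 higher and 1 lower, 6.82% of those tested against 2.81% of all genes. The synthases of prostaglandin D and thromboxane, Hpgds and Tbxas1, were higher, and Agtr2 was lower (-5.47, adjusted p = 0.0457, limma). Hpgds was listed at 0 in MACs and was at 2.60, 91.4 and 229 FPKM in Akt-MACs, and Tbxas1 was at 4.49, 74.9 and 230. Among these libraries both moved with the summed macrophage markers, at 809, 8402 and 27556 FPKM in Akt-MACs and at 14.7 or less in MACs. Elsewhere Hpgds was at 106 FPKM in Akt-LEC 2, where the markers summed to 0.75. In LSECs it was at 8.44 to 15.3 FPKM, where they summed to 9009 to 14902. The part of macrophages was not tested.

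Between Akt-liver ECs and LSECs 4 pathway genes were called higher and 11 lower, 34.1% of those tested against 27% of all genes. The prostaglandin-degrading enzyme Hpgd was at 2133 to 2936 FPKM in LSECs and at 15.5 or less in Akt-liver ECs (-9.62, adjusted p = 3.20e-07, limma). Enpep, an aminopeptidase that cleaves angiotensin II, was at 755 to 973 against 5.66 or less (-8.80, adjusted p = 2.67e-05), and Nostrin at 440 to 768 against 46.3 or less (-6.68, adjusted p = 0.00187). Tbxas1 was at 77.2 to 173 FPKM in LSECs (-6.06, adjusted p = 0.000284), beside the macrophage markers given above, whose part was not tested. In the 6 other comparisons 0 of the 44 were called with limma. Those past 2-fold at an unadjusted p below 0.05 were 9 between Akt-RACVECs and RACVECs, 5 between Sox17-RACVECs and RACVECs, 5 between RACVECs and Akt-LECs, 2 between Sox17-RACVECs and Akt-RACVECs, 4 for the difference of the Akt effects and 0 between Akt-LECs and Akt-liver ECs. Of all genes, 10%, 4.7%, 7.79%, 4.02%, 10.1% and 2.79% stood at the same p and fold in these comparisons. Without the library labelled Sox17-RACVEC 2, Mme and the converting enzyme gene Ece2, both listed at 0 in all Akt-RACVEC libraries, were called lower there than in RACVECs. Ece2 was then also called between Sox17-RACVECs and Akt-RACVECs, Agtr2 was no longer called between Akt-MACs and MACs, and 13 in place of 15 were called between Akt-liver ECs and LSECs.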

How the data were processed

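RNA was sequenced as paired reads of 51 bp. According to the methods and the submitters' processing notes, the authors aligned them to mm9 by TopHat and made the deposited FPKM with Cufflinks, using upper-quartile normalization and correction for sequence bias, 1 value per RefSeq transcript. Versions and the annotation release are not given in the sources used here. Read numbers are not given either, so the depth and the counting error are unknown, and the precision is that between 3 libraries. An exact 0 can be a failed estimate, since 17 of 4773 genes at 50 FPKM or more in at least 20 libraries were listed at 0 in another, so levels are given as listed.

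Of 27583 transcripts, 26934 were joined to symbols with a RefSeq table (GRCm38.p6) and summed per symbol. Comparisons used limma (version 3.58.1, R version 4.3.3) and log2(FPKM + 1), a scale that understates changes of low genes. The 14964 genes that averaged 1 FPKM or more entered 1 fit of 8 groups with a variance trend, two-sided, with Benjamini-Hochberg adjustment over all of them. A call needed an adjusted p below 0.05 and a log2 change past 1 or -1. The criterion of the study (ratio of mean FPKM past 2-fold, here with 1 added to each mean, and an unadjusted unequal-variance test) was an alternative, since it does not allow for many genes. Correlations used pandas 2.3.3 in Python 3.11.15.

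All members are named in every comparison. Of the pathway lists, up to 4 called genes with the largest change were named per comparison, together with the 3 genes most like each member; Slc7a1 is named beyond that rule as 1 of a pair. The members and lists were chosen with earlier results of these data known. Alternatives were other pseudocounts (0.1 and 10), filters, scalings and fits, transcripts kept apart and leaving out each library. Leaving out the library labelled Sox17-RACVEC 2 in comparisons without that group, and both libraries headed by numbers, were added after seeing the data.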

Additional observations from a re-analysis of the deposited data

Results flagged for a closer look

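The effect of Akt on Nos3 differed between converted cells and amniotic cells in a test of the difference itself, by 6.70 on the log2 scale (SE 1.34, adjusted p = 0.0353 with limma), when the library labelled Sox17-RACVEC 2 was left out. With all libraries the adjusted p was 0.259, and in a fit of these 4 groups alone 0.0922 (0.180 with a replicate block), so that the difference was not called in either (limma). All 3 Akt-RACVEC libraries were above all 3 RACVEC libraries, while Akt-MACs and MACs overlapped. Erg also differed between Akt-RACVECs and RACVECs, as given above, and its part was not tested.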

How the results depend on the processing

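With pseudocounts of 0.1 and 10, no filter, a mean FPKM of at least 10, median scaling, only the groups compared and transcripts kept apart, the number of members called stayed within 1.5 times that given in all 10 comparisons, and no call changed direction under any alternative. By the criterion of the study it became 1 for Akt-liver ECs against LSECs (Ptgs1) and 1 for Sox17-RACVECs against Akt-RACVECs (Ednrb). That criterion took 12.6% and 0.431% of the 22282 genes in these comparisons. Leaving out 1 library gave 0 to 1 for RACVECs against MACs, Akt-RACVECs against RACVECs, Akt-MACs against MACs, RACVECs against Akt-LECs and the difference of the Akt effects, 3 to 5 for cultured ECs against MACs, 0 to 2 for Akt-liver ECs against LSECs and 0 to 3 for Sox17-RACVECs against Akt-RACVECs. In the fits that called a member, the shares of all genes called were, in the same order, 1.59% to 4.99%, 2.45%, 1.18%, 0.668% and 0.368%. They were 8.97% to 15.6%, 22.8% to 27.9% and 2.27% in the last 3 comparisons. With the library labelled Sox17-RACVEC 2 left out, the SE of Nos3 was smaller in the fit over all groups, and its added calls for Akt-RACVECs against RACVECs, RACVECs against Akt-LECs and the difference of the Akt effects were not made in fits of only the groups compared.

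Same-numbered libraries are not stated to share an isolate, and their deviations from the group means correlated from -0.488 to 0.571, so no pairing was assumed. With a replicate block, the number of members called was 3 for cultured ECs against MACs (Edn1 at adjusted p = 0.0604, Ednra at 0.110) and 1 for Akt-liver ECs against LSECs (Edn1 at 0.0524), and it was 0 as before in the other comparisons. Of all genes, 5.35% and 21.6% were called in those 2 comparisons with a block. Without a block, the fit of only the groups compared had Ednra at 0.0969 for cultured ECs against MACs (limma). The cause of these changes was not tested. Depth is unknown, so low values cannot be told from 0.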
